A study of Homo sapiens with 24 samples.

Results

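The HOX genes of both cell lines were followed through all 24 arrays. The members were all genes whose symbol in the array files was HOX, a cluster letter from A to D and a number, which gave 39 genes and 44 probes of the 25992 genes and 34127 probes on the array. Where a gene had more than 1 probe the brightest stood for it, and 5 genes (HOXA9, HOXA10, HOXB2, HOXD3 and HOXD9) had a pair of probes. The samples were A549 and H1975, established human lung adenocarcinoma lines, kept with 0.75 mg/ml Pirfenidone, an antifibrotic drug, or with an equal volume of PBS, its solvent, for 6 h or 24 h. Each of the 8 groups (line, treatment and time) held 3 samples with 1 one-color Agilent array each. The labels do not say that the 3 samples of a group were separate cultures, so the p-values measure the spread between these samples, which may be technical. Each line comes from a single tumor and was grown alone, so differences between the lines describe these 2 lines.

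HOX genes encode transcription factors that bind DNA through the homeodomain, which is encoded by a conserved stretch of the gene called the homeobox. They lie in 4 clusters on different chromosomes. Genes of the same number in different clusters are paralogs, and low numbers are used toward the head and high numbers toward the tail of the embryo. Retinoic acid switches the clusters on, Polycomb complexes keep them silent, trithorax proteins keep them active, and PBX and MEIS proteins bind DNA together with HOX proteins. In the lung, HOXA5 and HOXB5 are known for their part in the branching of the airways.

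The brightest probes followed the order of the genes on hg19, while the second HOXD3 probe lay between those of HOXD8 and HOXD4. The HOXA probes lay on chromosome 7 between 27132616 and 27236733, HOXB on chromosome 17 between 46607916 and 46802203, HOXC on chromosome 12 between 54340034 and 54449814, and HOXD on chromosome 2 between 176960600 and 177055431. Paralogs are most alike in the homeobox. A total of 3 probes are shown because they hold nearly the same homeobox stretch, which encodes part of the DNA recognition helix, and yet were detected in different arrays. Capitals mark their best shared 16 bases, CANGTCAANNTCTGGT, with N where the probes differ and 13 positions alike. The stretch was read from these 3 probes, and of all 34127 probes, each 60 bases long, only they held it on either strand (0.00879%).
HOXB2 (second probe, chr17:46620897-46620956, minus strand): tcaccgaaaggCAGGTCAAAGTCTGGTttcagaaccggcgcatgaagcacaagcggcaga
HOXC10 (chr12:54383100-54383159, plus strand): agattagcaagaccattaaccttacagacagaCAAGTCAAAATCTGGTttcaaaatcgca
HOXC12 (chr12:54350226-54350285, plus strand): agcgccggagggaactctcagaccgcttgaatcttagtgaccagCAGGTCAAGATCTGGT
The HOXB2 probe was well above background on all 6 PBS arrays of A549 and on none of H1975. The HOXC10 probe was above it on 1 PBS array of A549 and 5 of H1975, and the HOXC12 probe on none of either line.

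Both lines had the markers of epithelial cells. The 8 epithelial genes, among them KRT7, KRT8, KRT18, KRT19 and EPCAM, were well above background on all 6 PBS arrays of each line, with a summed signal of 394 to 452 in A549 and 367 to 575 in H1975 (multiples of the array's 75th percentile). Of the other cell types, DCN, COL3A1, KDR, TEK and CD3E were at background on all PBS arrays of both lines. The 6 fibroblast genes summed to 0.285 to 0.966 in A549 and to 2.53 to 6.94 in H1975, and the 5 endothelial genes to 0.0239 to 0.0295 and 0.0652 to 0.103. Their part in the line differences was not tested. AKR1B10 and AKR1C1, known for high levels in A549, had mean log2 signals of 7.09 and 6.34 there and -2.11 and -3.05 in H1975. CDKN2A, which is deleted in A549, was nonetheless well above background on all 6 of its PBS arrays, at -1.79 against 2.65 in H1975, while CDKN2B was at background on all 6. Where the CDKN2A probe lies relative to the deletion was not checked. All signals below are log2 values of the processed signal relative to the 75th percentile of the array. They can be compared for 1 probe between arrays and not between probes.

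The first question was which clusters each line used without the drug. In A549, 26 of 39 HOX genes (66.7%) were well above background on all 6 PBS arrays, and in H1975 14 (35.9%). Over all probes these shares were 59.7% and 62.6%. The HOX shares count each gene by its brightest probe, whereas the shares over all probes, here and below, count every probe. A total of 13 genes were detected on all 6 PBS arrays of both lines, 13 on all 6 of A549 alone and 1, HOXD3, on all 6 of H1975 alone. The remaining 12 were on no PBS array (5 genes) or on some (7 genes). Of the HOX genes, 9 (23.1%) were on all 6 PBS arrays of A549 and on none of H1975, against 1.67% of all probes, and 1 (2.56%) showed the opposite pattern, against 2.82% of all probes. In these bulk samples, fewer cells with a transcript and less of it per cell cannot be told apart.

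**Figure D1:**
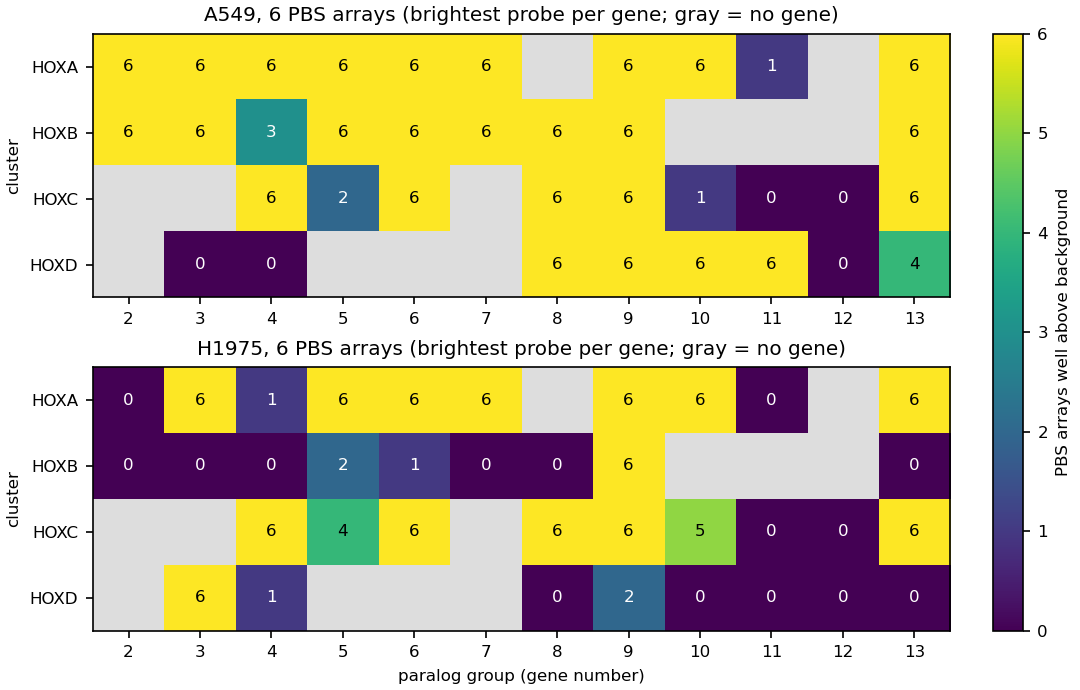
Number of PBS arrays, of 6 per line, on which the brightest probe of each HOX gene was well above background, by cluster (rows) and paralog group from 2 to 13 (columns), with A549 above and H1975 below and gray where a cluster has no gene of that number. The HOXC row has the same 5 genes on all 6 arrays in each line, the HOXA row 9 in A549 and 7 of these in H1975, the HOXB row 8 in A549 and only HOXB9 in H1975, and the HOXD row holds HOXD8 to HOXD11 in A549 and HOXD3 in H1975.

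The HOXA cluster was used by both lines. Of its 11 genes, 9 were on all 6 PBS arrays of A549 and 7 of H1975, and these 7 (HOXA3, HOXA5, HOXA6, HOXA7, HOXA9, HOXA10 and HOXA13) were all among the 9. HOXA2 and HOXA4 were on all 6 in A549. In H1975 HOXA2 was on none and HOXA4 on 1. HOXA11 was above background on 1 array of A549 and none of H1975. The HOXC cluster had the same 5 genes, HOXC4, HOXC6, HOXC8, HOXC9 and HOXC13, on all 6 PBS arrays of each line. HOXC5 (2 arrays of A549, 4 of H1975) and HOXC10 were on some arrays, and HOXC11 and HOXC12 were on none.

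The HOXB cluster held 7 genes that were on all 6 PBS arrays of A549 alone, the HOXD cluster 4 and the HOXA cluster 2. Of its 10 genes, 8 were on all 6 in A549 and 1, HOXB9, in H1975. In A549 these 8 genes were HOXB2, HOXB3, HOXB5 to HOXB9 and HOXB13, with HOXB4 on 3 arrays between them and HOXB1 on none. HOXB9 and its neighbor HOXB8, undetected in H1975, have probes 8.72 kb apart, while HOXB13, the prostate and colon gene at the tail end of the cluster, lies 103 kb beyond HOXB9. In H1975 HOXB2, HOXB3, HOXB4, HOXB7, HOXB8 and HOXB13 were at background on all 6 PBS arrays, HOXB5 was above it on 2, and HOXB1 and HOXB6 on 1 each. The HOXD cluster had no gene on all 6 PBS arrays of both lines. HOXD8, HOXD9, HOXD10 and HOXD11 were on all 6 PBS arrays of A549, where HOXD13 was on 4. In H1975 HOXD3 was on all 6, HOXD9 on 2 and HOXD4 on 1. The HOXD9 probes disagreed, since the other one was above background on 3 PBS arrays of A549 and 4 of H1975. HOXD1 and HOXD12 were on none in either line.

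HOXD3 and HOXD8 lie in the same cluster and each was detected in 1 line alone, HOXD3 in H1975 and HOXD8 in A549, and their promoters are printed for that reason. The 250 bases before the start of each gene are given 5′ to 3′ from RefSeq on GRCh38.p14, plus strand, with CG dinucleotides in capitals.
HOXD3 (chr2:176157057-176157306): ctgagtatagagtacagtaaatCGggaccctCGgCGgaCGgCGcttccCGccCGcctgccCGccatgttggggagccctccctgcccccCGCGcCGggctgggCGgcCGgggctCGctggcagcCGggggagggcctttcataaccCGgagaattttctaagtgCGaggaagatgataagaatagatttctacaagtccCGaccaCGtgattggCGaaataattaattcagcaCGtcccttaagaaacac
HOXD8 (chr2:176129455-176129704): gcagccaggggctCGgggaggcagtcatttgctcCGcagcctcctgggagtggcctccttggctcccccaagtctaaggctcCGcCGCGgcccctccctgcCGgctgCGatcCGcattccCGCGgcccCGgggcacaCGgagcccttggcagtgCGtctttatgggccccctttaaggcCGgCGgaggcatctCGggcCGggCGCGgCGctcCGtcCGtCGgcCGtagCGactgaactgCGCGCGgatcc
Over 300 bases, from 250 before to 50 after the start, HOXD3 held 25 CG and HOXD8 34, and 32% and 15.6% of all 35116 promoters in the table held at least as many. HOXD10 and HOXD11, also detected in A549 alone, held 23 and 27. HOXD1 and HOXD12, detected in neither line, held 36 and 19. The CG counts overlapped between the genes detected in 1 line and those detected in neither.

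For genes at background in 1 line, the difference between lines is a lower bound, set by the lowest signal among probes well above background on each array. The adjusted p values beside the bounds come from the limma test on the measured signals, including those at background. They do not test the bound, and a gene that entered the test through 1 line alone had to be higher there. HOXB13 had log2 signals of -0.34, -0.27 and -0.50 on the A549 PBS arrays at 6 h and -0.04, 0.06 and -0.03 at 24 h, while the 6 H1975 arrays lay between -9.74 and -9.34, all at background. It was at least 131-fold higher in A549 at 6 h (limma, adjusted p = 7.26e-20) and at least 154-fold at 24 h (adjusted p = 5.38e-20). HOXB6 had 1.12, 0.81 and 0.93 in A549 at 6 h, with all 3 H1975 arrays at background, and was at least 329-fold higher (adjusted p = 3.56e-15). At 24 h its 3 A549 arrays read 0.89, 0.72 and 0.89, and 1 of 3 H1975 arrays was above background at -6.76.

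HOXB8 lay between -2.10 and -1.55 on the 6 A549 PBS arrays and between -9.73 and -9.35 on those of H1975, at least 44.2-fold higher in A549 at 6 h and 45.9-fold at 24 h. HOXB2 was at least 40.3-fold and 39.1-fold higher in A549 by its brightest probe, and at least 13.5-fold at 6 h by the homeobox probe printed above. HOXD10, a gene of the limb and spinal cord, lay between -3.18 and -1.75 in A549 and at background on all 6 H1975 arrays, at least 31.6-fold and 32.7-fold higher in A549. HOXD8 was at least 20.4-fold and 25.6-fold higher in A549. HOXD3 ran the other way. It read -4.74, -4.42 and -4.10 in H1975 at 6 h and -4.33, -4.38 and -4.42 at 24 h, with all A549 arrays at background, and was at least 5.47-fold higher in H1975 at 6 h (limma, adjusted p = 1.53e-05) and 5.09-fold at 24 h (adjusted p = 7.22e-06). Its other probe, for transcript ENST00000459979, was at background on all 24 arrays. The other genes bounded at both times (HOXA2, HOXB3, HOXB7 and HOXD11) were at least 5.17-fold to 18.5-fold higher in A549. HOXA4 was at least 19.7-fold higher at 6 h.

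In the test across all probes, 29 of the 39 genes were tested, because all 3 arrays of some group lay well above background, and 10 were not, among them HOXA11, HOXB1, HOXB4, HOXD4 and HOXD13. Passing required a limma p of at most 0.05 after Benjamini-Hochberg adjustment and a difference of at least 2-fold. Between the lines in PBS, 22 HOX genes passed at 6 h and the same 22 at 24 h, beside 32.4% and 32.9% of all tested probes. HOXD3 was higher in H1975 and the other 21 were lower, beside 15.3% and 14.9% of all tested probes lower in H1975. A gene that entered the test through 1 line alone had to be higher there, as HOXD3 in H1975 and the genes at background in H1975 did, so the counts rest in part on the filter.

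The 13 genes detected in both lines do not have this limit. Of these, 8 passed at each time, all lower in H1975, whereas of the 19228 probes detected on all 12 PBS arrays 12.5% at 6 h and 12.2% at 24 h passed as lower in H1975. The median difference of the 13 genes was -2.14 at 6 h and -1.76 at 24 h, beside 0.0551 and 0.0769 over all tested probes. The 8 genes were HOXA3, HOXA5, HOXA6, HOXA7, HOXA13, HOXB9, HOXC8 and HOXC9. No slide held both lines, so slide and line cannot be told apart. By the date in the deposited files the arrays fell into 4 runs, 2 of which held both lines. Within each of these 2 runs, all 8 genes were lower in H1975 at both times, by -6.08 to -0.73 at 6 h and by -5.80 to -1.09 at 24 h.

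**Figure D2:**
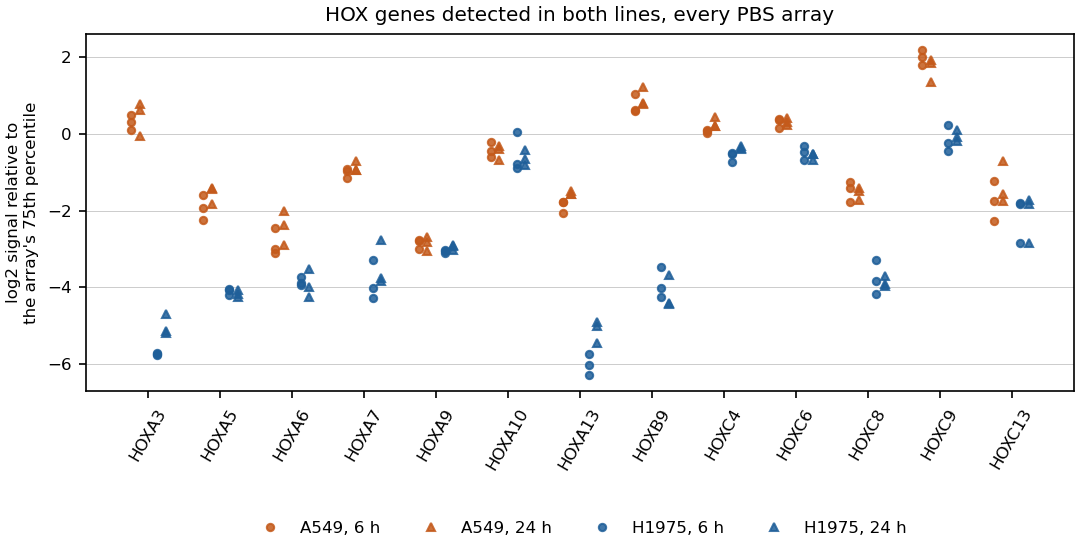
Log2 signal relative to the array's 75th percentile (vertical axis) on every PBS array for the 13 HOX genes detected in both lines, with A549 in orange, H1975 in blue, circles for 6 h and triangles for 24 h. The arrays of HOXA3, HOXA13 and HOXB9 lie wholly apart in the 2 lines, with mean differences between -6.05 and -3.59, and those of HOXA9, HOXA10 and HOXC13 overlap. Compare points within a gene, since probes differ in brightness.

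HOXA3, which patterns the pharyngeal arches, showed the largest difference of the 13. It read 0.50, 0.31 and 0.11 in A549 and -5.72, -5.78 and -5.74 in H1975 at 6 h, and 0.77, 0.61 and -0.06 against -5.18, -4.71 and -5.13 at 24 h. The groups did not overlap. The difference was -6.05 (SE 0.236, n = 3 per group, limma, adjusted p = 4.67e-14) at 6 h and -5.45 (adjusted p = 2.43e-13) at 24 h. HOXB9 followed, with 0.60 to 1.23 over the 6 A549 arrays and -4.44 to -3.48 in H1975, a difference of -4.67 (SE 0.325, limma, adjusted p = 3.35e-10) and -5.13. HOXA13, a gene of the limb tip and hindgut, lay between -2.07 and -1.48 in A549 and between -6.29 and -4.91 in H1975, and the difference was -4.15 and -3.59.

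HOXA7 lay between -1.14 and -0.70 in A549 and between -4.27 and -2.77 in H1975, a difference of -2.85 at 6 h and -2.60 at 24 h. HOXA5, known from the branching lung, had differences of -2.19 and -2.60, HOXC8 of -2.29 and -2.32, and HOXC9 of -2.14 and -1.76. None of these 4 genes had overlapping arrays. HOXA6 was nearest to the limit, at -1.01 (limma, adjusted p = 0.00308) and -1.51 (adjusted p = 7.45e-05). The 6 h value fell short of the 2-fold limit with run as a block (-0.79), after normexp correction (-0.87), and without A549 PBS replicate 1 (-0.81).

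HOXC4 and HOXC6 differed by less than 2-fold. HOXC4 was lower in H1975 by a difference of -0.65 (limma, adjusted p = 1.24e-04) and -0.64, and HOXC6 by -0.80 (adjusted p = 0.00136) and -0.89. Both had all H1975 arrays below all A549 arrays. HOXA9, HOXA10 and HOXC13 did not pass. The 95% interval of the difference was -0.59 to 0.20 for HOXA9 and -0.71 to 0.46 for HOXA10 at 6 h, within the 2-fold limit, and -1.31 to 0.49 for HOXC13, which reaches beyond it. The other probe of HOXA9 gave 0.29 and -0.26, and that of HOXA10 gave 0.45 (limma, adjusted p = 0.00815) and 0.01, so at 6 h the pair of HOXA10 probes differed in sign.

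**Figure D3:**
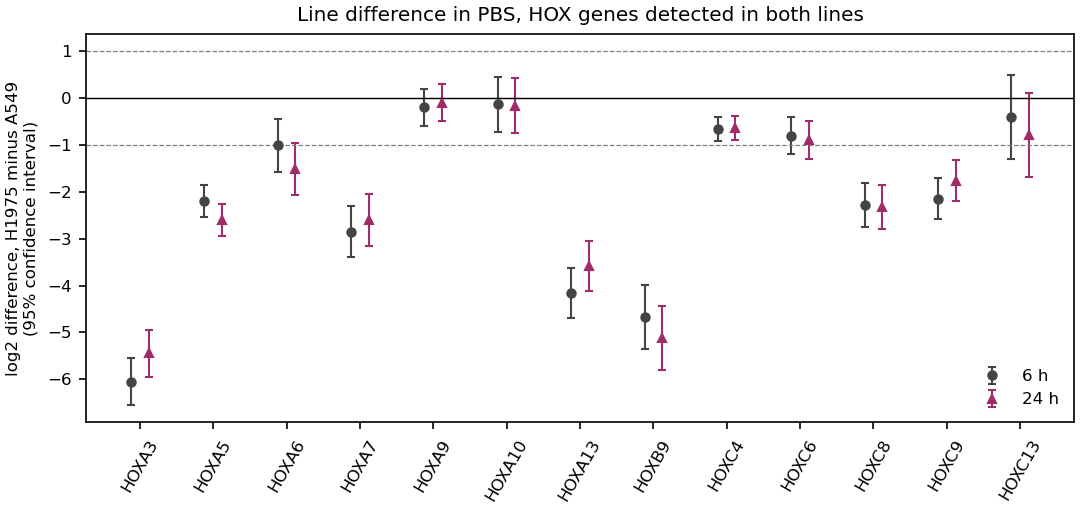
Difference between the lines in PBS, H1975 minus A549 in log2 units with 95% confidence intervals, for the 13 HOX genes detected in both lines at 6 h (circles) and 24 h (triangles). Dashed lines mark 2-fold. HOXA3, HOXB9 and HOXA13 lie below -3.5, while HOXA9 and HOXA10 have intervals that include 0 and stay within 2-fold at both times.

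The second question was whether Pirfenidone changed HOX genes. No HOX gene passed in any of the 4 comparisons of Pirfenidone with PBS. In A549 at 6 h 0 of 29 passed, beside 0.176% of all probes, and in A549 at 24 h 0 beside 0.0126%. In H1975 0 passed at 6 h beside 0.491%, and 0 at 24 h beside 1.89%. At an unadjusted limma p under 0.05 the counts were 1, 1, 6 and 1 in the same order, against 6.01%, 0.953%, 11% and 22% of all probes. The paired test that the study used for selected genes, here paired by run with an unadjusted p limit and a 2-fold limit, gave 0 HOX genes in each comparison and 84, 29, 215 and 524 probes in all, of which none remained after Benjamini-Hochberg adjustment. The 2-fold limit was added here. Without it the paired test gave 7, 1, 3 and 3 HOX genes at an unadjusted p. The matching shares of all probes are not given here, so these counts have no comparison. The median change of the 13 HOX genes detected in both lines was -0.138 and -0.219 in A549 and 0.0703 and -0.102 in H1975, beside -0.0125, -0.0241, 0.0517 and 0.0226 over all probes. The 3 Pirfenidone arrays did not overlap the 3 PBS arrays for 5, 1, 5 and 7 HOX genes, against 15.3%, 1.82%, 17.8% and 31.9% of all probes.

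The width of the intervals differed between genes. Of the 26 HOX genes well above background on all 6 arrays of a comparison in A549, 18 at 6 h and 20 at 24 h had a 95% interval within 2-fold in either direction. In H1975 these were 7 of 14 genes at 6 h and 10 of 15 at 24 h. HOXB13 had differences of 0.10 and -0.06 in A549, and HOXC4 had differences of -0.26 to -0.16 over the 4 comparisons. The Pirfenidone arrays of HOXC4 lay below its PBS arrays without overlap in A549 at both times and in H1975 at 24 h. In H1975 at 6 h they overlapped. The interval of HOXB5 ran from -2.12 to 0.88 in A549 at 6 h and from -1.54 to 1.46 at 24 h. The fit pools the spread of all 8 groups. HOXB5 had SDs of 0.237 to 0.641 in the A549 groups and 0.608 to 1.47 in those of H1975, where it was mostly at background. The A549 intervals, and the counts of them within 2-fold, therefore also carry spread from H1975. Leaving out the A549 PBS and Pirfenidone arrays of replicate 3 at 24 h, which stood apart from the other pairs, left the HOX count at 0. For HOXA3 that pair decided the value, which was -0.28 with it and -0.80 (adjusted p = 0.214) without it.

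**Figure D4:**
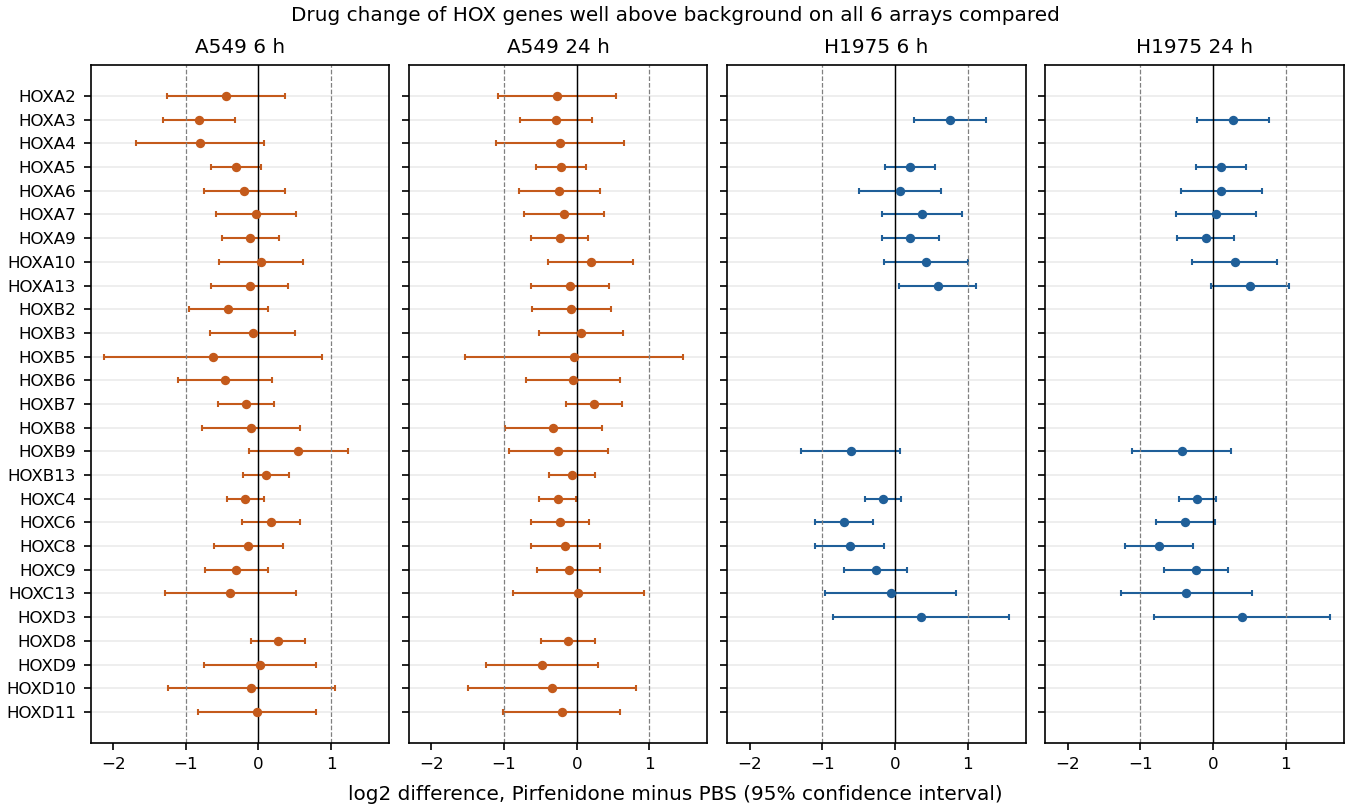
Change with Pirfenidone, Pirfenidone minus PBS in log2 units with 95% confidence intervals, for HOX genes well above background on all 6 arrays of the comparison, with A549 in orange and H1975 in blue. Only genes detected on all 6 PBS arrays of a line are drawn, which leaves out HOXC10 in H1975 at 24 h. Dashed lines mark 2-fold. No estimate passes a dashed line, and the H1975 panels show HOXC6 and HOXC8 to the left of 0 and HOXA3 and HOXA13 to the right.

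The lowest adjusted p values were those of HOXC8 at 24 h and HOXC6 at 6 h in H1975. HOXC8, which is used in the thoracic region of the embryo, read -3.69, -3.96 and -3.92 with PBS and -4.51, -4.45 and -4.84 with Pirfenidone at 24 h. The groups did not overlap, the difference was -0.74 (SE 0.226, n = 3 per group) and the limma adjusted p was 0.0559. With run as a block the adjusted p was 0.0132, after quantile normalization 0.026 and after normexp correction 0.596, and the change stayed under 2-fold in all of these. Within the 3 runs the difference was -0.92, -0.82 and -0.49. The PBS and Pirfenidone arrays of the pair at -0.82 were on different slides and were scanned on different days. At 6 h the arrays read -4.17, -3.83 and -3.29 with PBS and -4.44, -4.08 and -4.65 with Pirfenidone, a difference of -0.62 (limma, adjusted p = 0.251).

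HOXC6, its neighbor, read -0.69, -0.48 and -0.31 with PBS and -1.10, -0.95 and -1.52 with Pirfenidone in H1975 at 6 h. All Pirfenidone arrays lay below all PBS arrays, by a difference of -0.70 (SE 0.191, limma, adjusted p = 0.0874, 0.00625 with run as a block). At 24 h the difference was -0.38 (adjusted p = 0.256), again without overlap. In A549 the HOXC6 differences were 0.17 and -0.23, and those of HOXC8 were -0.14 and -0.15. The other HOXC genes detected in both lines, HOXC4, HOXC9 and HOXC13, had differences in H1975 of -0.37 to -0.06 over both times, none with a limma adjusted p of 0.05 or less.

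HOXA3 had opposite signs in the 2 lines at 6 h. In A549 it read 0.50, 0.31 and 0.11 with PBS and -0.15, -0.69 and -0.72 with Pirfenidone, a difference of -0.82 (SE 0.236, limma, adjusted p = 0.234). In H1975 it read -5.72, -5.78 and -5.74 with PBS and -5.00, -5.03 and -4.94 with Pirfenidone, a difference of 0.76 (adjusted p = 0.149). Neither pair of groups overlapped. The line difference in drug change, H1975 minus A549, was 1.58 (SE 0.334) with an unadjusted p of 1.58e-04 and a limma adjusted p of 0.130, so it did not pass. It passed with slide as a random block (adjusted p = 0.0169). At 24 h the same difference was 0.55 (adjusted p = 0.551). Of the 13 HOX genes well above background on all 12 arrays of a time point, 5 had opposite signs in the 2 lines in all 3 run pairs at 6 h, beside 5.03% of such probes, and 0 at 24 h, beside 3.94%.

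HOXB9 ran in the other direction. It read 0.60, 1.05 and 0.62 with PBS in A549 at 6 h, where the 3 Pirfenidone arrays had a mean of 1.31 (SD 0.279). In H1975 it read -3.48, -4.24 and -4.01 with PBS and -4.91, -4.84 and -3.80 with Pirfenidone. The drug change was 0.55 in A549 and -0.60 in H1975, with overlapping arrays in both lines. The line difference was -1.15 (SE 0.460, limma, adjusted p = 1), and it passed with run as a block (adjusted p = 0.0144). HOXA13 differed with Pirfenidone in H1975, without passing, by 0.59 at 6 h (limma, adjusted p = 0.380, and 0.0120 with run as a block) and by 0.51 at 24 h (adjusted p = 0.252, and 0.0127 with run as a block), while in A549 its differences were -0.12 and -0.09.

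**Figure D5:**
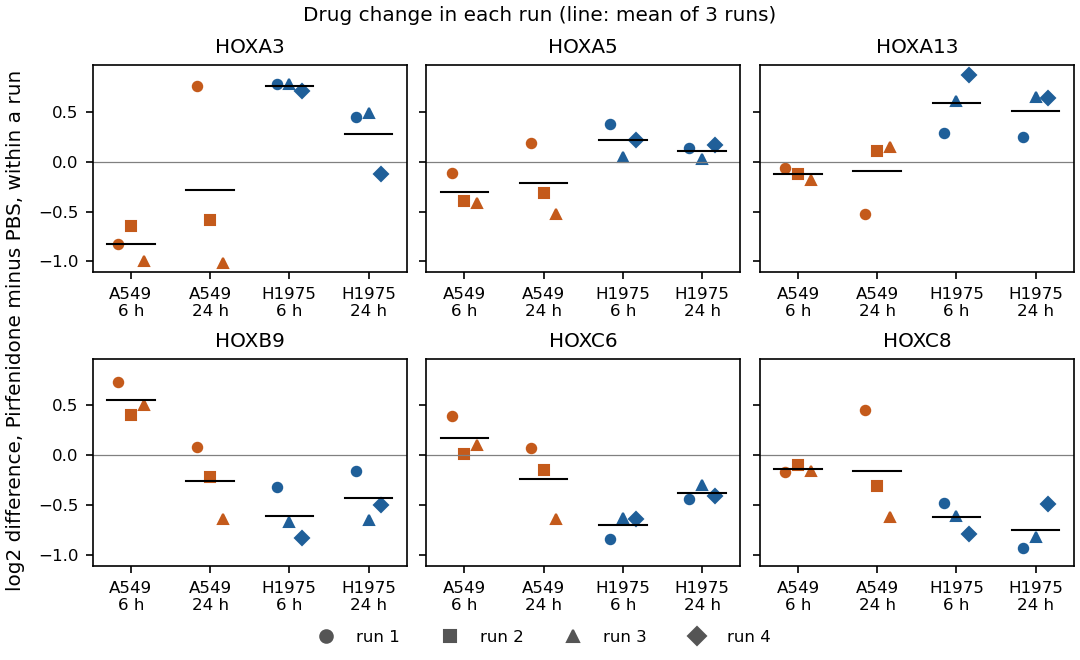
Log2 difference between the Pirfenidone and the PBS array of the same run (vertical axis) for 6 HOX genes, by line and time (horizontal axis), with a symbol for each run and a bar for the mean of 3 runs. HOXA3 is below 0 in all 3 runs of A549 and above 0 in all 3 of H1975 at 6 h, and HOXC6 and HOXC8 are below 0 in all runs of H1975 at both times, while run 1 of A549 at 24 h lies apart from the other 2 runs for HOXA3 and HOXC8.

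Between the lines, 0 HOX genes passed for a difference in drug change at 6 h, beside 0.0336% of all probes, and 0 at 24 h beside 0.193%. At an unadjusted limma p under 0.05 there were 5 HOX genes at 6 h (2.63% of all probes) and 0 at 24 h (12.2%). Time in culture was compared in PBS. There, 0 HOX genes passed between 24 h and 6 h in A549 (0.109% of all probes) and 0 in H1975 (0.315%), with 4 and 3 at an unadjusted p under 0.05 (8.49% and 10.6% of all probes). HOXA13 in H1975 read -6.29, -5.74 and -6.02 at 6 h and -4.91, -5.00 and -5.46 at 24 h, a difference of 0.89 (SE 0.254, limma, adjusted p = 0.124, 0.000972 with run as a block). The 6 h and 24 h arrays did not overlap.

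Some genes were at the edge of detection in H1975. HOXB6 was above background on 1 of 3 PBS arrays and on all 3 Pirfenidone arrays at 24 h, and the levels overlapped, at -7.13, -6.76 and -7.61 against -7.11, -7.29 and -7.34. HOXD10 was at background on all 6 PBS arrays of H1975 and above it on 1 Pirfenidone array, at 6 h with -6.30. HOXD13 was above background on 2 Pirfenidone arrays of H1975, and HOXA2 on 1. HOXC11, HOXC12, HOXD1 and HOXD12 were among the genes on no array of either line under either treatment.

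The array also held 6 noncoding RNAs of the clusters and the genes PRAC1 and PRAC2, which encode small nuclear proteins. Of the noncoding RNAs, HOXA-AS2 and HOXA11-AS of the HOXA cluster and HAGLR of the HOXD cluster were tested and were lower in H1975 at each time. HOXA-AS2 entered the test only through A549 and so had to be lower in H1975. It was at background on all 6 PBS arrays of H1975 and above it on 5 of A549. HOXA11-AS lay between -4.49 and -4.03 in A549 and between -7.55 and -6.31 in H1975, a difference of -2.81 and -2.60, with 4 of 6 H1975 arrays above background. HAGLR was above it on 5 of 6. PRAC2, which lies between HOXB9 and HOXB13, was on all 12 PBS arrays and differed by -0.16 and -0.19. HOTAIR, of the HOXC cluster, was on 1 PBS array of H1975 and none of A549. None of the tested ones passed in a comparison with Pirfenidone.

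Of the other lists, too, the counts between the lines stand beside 32.4% of all tested probes passed at 6 h (15.3% lower in H1975) and 32.9% at 24 h (14.9% lower). Of 16 tested genes that flank the clusters, 1 was higher and 2 were lower in H1975 at 6 h, and 1 and 3 at 24 h, with a median of 0.0539 and 0.0702. TTLL6, near the HOXB cluster, was at background on all 6 PBS arrays of H1975 and lay at a mean of -4.90 in A549, and SNX10, near HOXA, was higher in H1975 by 1.41 and 1.45 log2 units. Among the 8 tested cofactors that bind DNA with HOX proteins, 1 was higher and 2 were lower at each time, near the share of all probes. PBX4 differed by 2.40 and 2.58.

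The Polycomb list, whose products silence HOX clusters, had 26 tested genes. At 6 h 6 were lower and none was higher in H1975, and at 24 h 5 were lower and 1 was higher, beside 32.4% and 32.9% of all probes passed in both directions. The list had CBX8 (-1.80 and -1.93) and PCGF5 (-1.57 and -1.61) among the genes that passed. Of the 18 trithorax, menin and H3K27 demethylase genes, which keep HOX genes active or remove the silencing mark, 2 were higher and 3 lower at each time, about the share of all probes. The higher ones were DOT1L (1.88 and 1.96) and MLLT1 (1.66 and 1.55). Of 17 tested genes of retinoic acid supply and response and the CDX factors, 2 were higher and 8 lower at each time, beside 15.3% and 14.9% of all probes lower. Of the 20 genes of this list on the array, 16 were on all 6 PBS arrays of A549 and 12 of H1975. A gene that entered the test through A549 alone had to be lower in H1975, so the count of 8 may rest in part on the filter. ALDH1A1, which makes retinoic acid, had a mean of 4.48 on the A549 PBS arrays and was above background on 2 of 6 in H1975. CYP26A1, which degrades it, had a mean of -0.95 in A549 and was above background on 1 of 6 in H1975. The lists' medians were -0.471 and -0.215 for retinoic acid, 0.00598 and 0.0222 for Polycomb and -0.169 and -0.0849 for trithorax.

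With Pirfenidone, the lists had 1 passing gene in the 4 comparisons, in H1975 at 24 h, where 1.89% of all probes passed. PHF19, an accessory subunit of Polycomb complex PRC2, fell in H1975 at 24 h by 1.40 log2 units (SE 0.325, limma, adjusted p = 0.0182). In the other comparisons with Pirfenidone its differences were -0.31 to 0.01. EZH2, its methyltransferase, had a difference of -0.68 in H1975 at 24 h (limma, adjusted p = 0.0545). None of the tested cofactors, trithorax genes, retinoic acid genes, flanking genes, noncoding RNAs or PRAC2 passed in any of the 4 comparisons.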

How the data were processed

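Gene expression was measured on 24 one-color Agilent arrays (design 026652, probe positions on hg19). Per the labels and file headers, the authors scanned each array and extracted spot intensity with Agilent Feature Extraction (version 11.5.1.1), which corrects background and marks spots that are outliers, well above background or saturated. The deposited table of processed log2 values, centered by the authors on each probe's median, was used as an alternative (r = 0.9988 with the scanner values centered the same way), and the sources used here do not give how each array was scaled there. Medians of its columns lay between -0.163 and 0.156.

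From the scanner files, processed signals were log2 transformed and the 75th percentile over 43118 non-control spots of the array was subtracted. Probe values are means over their spots without outliers. Detection (well above background) required a share of 0.5 of a probe's spots. Of 34127 probes, 23827 were detected on all 3 arrays of some group and were tested with limma 3.58.1 in R 4.3.3 (lmFit and eBayes, 1 fit of 8 groups, 16 residual degrees of freedom, two-sided), with Benjamini-Hochberg adjustment over all tested probes in place of the study's Westfall-Young adjustment, which groups of this size cannot pass. The arrays each detected 62.7% to 69.5% of probes, with none saturated. The fit was tested on simulated data with known changes. With 3 arrays per group, the number of arrays limits the precision, and an exact permutation test of 3 against 3 cannot give a p below 0.1.

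The members, gene lists and tests were chosen with earlier results of these data known. Values on every array were to be given for HOX genes that passed or were detected on the 12 arrays of a line, at most 20 in sentences, and from each other list at most 2 genes of largest change. Of genes detected in 1 line, those described with values were chosen after their values were seen, as were PRAC2, HOTAIR, SNX10 and EZH2. Probe symbols are those of the array files. By accession, 42 of 44 HOX probes matched RefSeq, all with the same symbol. Promoters are from RefSeq on GRCh38.p14 and cover 20 of the 39 genes. Exons and untranslated regions were not annotated here, and some genes are not reported here. Runs are dates in the deposited files, and the place on the slide was fixed by treatment and time, so place and group cannot be told apart. In A549 samples with the same replicate number shared a run. Alternatives were normexp correction (offset 50), quantile normalization, the authors' values, other filters, replicate number, run or slide as a block, only the arrays compared, Holm adjustment, no fold limit, all probes of a gene, a paired test by run, which the study used for selected genes, and leaving out each array.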

Additional observations from a re-analysis of the deposited data

Results flagged for a closer look

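For 5 HOX genes at 6 h the change with Pirfenidone had 1 sign in all 3 runs of A549 and the opposite sign in all 3 runs of H1975. These were 5 of the 13 HOX genes well above background on all 12 arrays at 6 h, while 968 of 19239 such probes (5.03%) showed the pattern. At 24 h 0 of 13 HOX genes did. The differences between the lines, H1975 minus A549, were tested with limma and none passed. They were 1.58 for HOXA3 (adjusted p = 0.130), 0.518 for HOXA5 (adjusted p = 1), 0.708 for HOXA13 (adjusted p = 1), -1.15 for HOXB9 (adjusted p = 1) and -0.869 for HOXC6 (adjusted p = 0.782). HOXA3, HOXA5 and HOXA13 were lower with Pirfenidone in A549 and higher in H1975, and HOXB9 and HOXC6 were higher in A549 and lower in H1975. The smallest changes behind this were 0.02 for HOXC6 in A549, 0.04 for HOXA5 in H1975 and -0.06 for HOXA13 in A549.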

How the results depend on the processing

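The count of 0 HOX genes in the 4 comparisons with Pirfenidone was the same under all but 1 of the alternatives run. This held with each array left out as well. The exception was the paired test by run without the 2-fold limit, which gave 7, 1, 3 and 3 HOX genes at an unadjusted p. An adjusted p of at most 0.05 with a change under 2-fold was reached in H1975 by HOXA3, HOXA13, HOXB9, HOXC6 and HOXC8 at 6 h and by HOXA13, HOXB9, HOXC8 and HOXC13 at 24 h, each in 1 to 5 alternatives. Between the lines, the 22 genes that passed at 6 h and at 24 h became 8 and 8 when the test was limited to probes well above background on all 24 arrays, since 13 HOX genes were then tested. The count of 0 for a line difference in drug change at 6 h became 1 with run as a block (HOXB9) and 1 with slide as a random block (HOXA3). The count of 0 for 24 h against 6 h in H1975 with PBS became 1 with run as a block and 1 with slide as a random block, and leaving out 1 array at a time gave 0 to 1, with 1 without H1975 PBS 6 h replicate 3. In each case the gene was HOXB6, whose probe was at background on 5 of the 6 arrays. The cause was not tested. Of 14 genes detected on all 6 PBS arrays of H1975, the count rose to 22 when 1 array was enough. Gene by gene, over the comparisons between lines and with Pirfenidone, 3307 values kept their direction and side of the limits, 13 lost their call, 6 gained one (all between the lines) and none reversed. The paired test without the 2-fold limit was not among these values. HOXA6 at 6 h lost its call in 6 alternatives, among them without A549 PBS replicate 1 and without H1975 PBS replicates 2 or 3 (-0.81 to -0.99), and HOXD9 lost it with normexp correction at both times (-0.67 and -0.78). With the replicate number as a block, the counts of HOX genes were 22 and 22 between the lines and 0 in the other comparisons, the same as without it. The block gave HOXC6 in H1975 at 6 h an adjusted p of 0.0382 (0.0874 without it) and HOXA13 for 24 h against 6 h in H1975 one of 0.0238 (0.124 without it), both under 2-fold. Same-numbered arrays deviated together in A549 at 6 h (r of 0.58 to 0.70) and H1975 at 24 h (0.46 to 0.72), and not in A549 at 24 h (-0.10 to 0.39) or H1975 at 6 h (-0.68 to 0.43). Arrays of the same run had r of 0.50 to 0.82 in H1975 at 6 h and 0.46 to 0.72 at 24 h. Signals near background limit HOXB5, HOXC5, HOXC10, HOXD9 and HOXD13.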
